A study of Mus musculus with 9 samples.

Results

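The STAT family of transcription factors was followed across cytokine-treated mouse bone marrow (BM)-derived Mϕs. The members were taken by name, as the rows of the expression table whose Ensembl identifiers map to Stat2, Stat3, Stat4, Stat5a, Stat5b and Stat6. This gave 6 of 53379 genes. The rule itself uses no measured value, although the family was proposed with earlier results of these data known. BM cells of wild-type C57BL/6 mice were differentiated in culture with 10 ng/ml CSF-1 (also called MCSF) for 3 days, and all groups then stayed in 10 ng/ml MCSF for 4 more days. Control Mϕs received MCSF alone, IL-4-treated Mϕs also received 10 ng/ml IL-4, and IL-6-treated Mϕs also received 100 ng/ml IL-6, with 3 libraries in each condition. These doses and times are those of the design text, whereas other texts of the study give other doses and times and the protocol label is misprinted, so they are not settled. The design text names 3 mice, and their age is not given in the sources used here. Levels are FPKM (fragments per kilobase of exon and per unit of library size), so that genes of different length can be set side by side, and differences are log2 fold changes of FPKM + 0.1. Each library held between 29988160 and 39909571 fragments assigned to genes.

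STAT proteins wait in the cytoplasm until a cytokine receptor is occupied. Janus kinases (JAKs) bound to the receptor then phosphorylate it and the docked STAT, and the STAT dimer moves to the nucleus and binds DNA, most often at the palindrome called GAS. STAT6 is the factor activated by the IL-4 receptor and STAT3 the factor activated by gp130, the shared chain of the IL-6 receptor, while STAT5A and STAT5B serve the colony-stimulating factor and γ-chain receptors. STAT4 is best known from IL-12 signalling in T and NK cells, and STAT2 binds IRF9 in the ISGF3 complex of type I interferon signalling, which recognises the element called ISRE. Activation is by phosphorylation, which transcript levels do not measure.

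The 6 genes lie in 3 places of the mouse genome. On chromosome 11 (GRCm38, GENCODE M21), Stat5b (ENSMUSG00000020919.11, chr11:100780731-100850724, minus strand), Stat5a (ENSMUSG00000004043.14, chr11:100859351-100885169, plus strand) and Stat3 (ENSMUSG00000004040.16, chr11:100885098-100939540, minus strand) are neighbours. Stat5b and Stat5a are 8626 bases apart, and the ends of Stat5a and Stat3 overlap by 72 bases on opposite strands. On chromosome 10 lie Stat6 (ENSMUSG00000002147.18, chr10:127642986-127660957, plus strand) and Stat2 (ENSMUSG00000040033.16, chr10:128270559-128292849, plus strand). Stat4 (ENSMUSG00000062939.11) stands alone on chr1:51987148-52107189, plus strand.

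Promoter windows of 3 members are shown, of Stat3 and Stat4 because these genes rose with IL-6, and of Stat2 because its window, like one of Stat4, holds matches to STAT-binding letters. Each window is the 250 bases before a RefSeq start (GRCm38.p6), written 5′ to 3′ on the gene's strand. Searches on both strands used GAS as TTCNNNGAA, the longer spacing preferred by STAT6 as TTCNNNNGAA, and the ISRE core as GAAANNGAAA, and matches are in capitals. Of 32851 mouse promoter windows of this length, 7.02% held the first, 5.85% the second and 2.98% the third. The windows are Stat2 at chr10:128270248-128270497 (plus strand), Stat3 at chr11:100939541-100939790 (minus strand), and the second of the RefSeq starts of Stat4 at chr1:52007990-52008239 (plus strand).
Stat2: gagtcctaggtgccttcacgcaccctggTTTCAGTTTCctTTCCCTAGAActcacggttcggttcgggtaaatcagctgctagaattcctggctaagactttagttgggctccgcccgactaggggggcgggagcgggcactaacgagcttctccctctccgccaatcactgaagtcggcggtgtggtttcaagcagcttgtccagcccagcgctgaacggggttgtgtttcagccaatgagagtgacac
Stat3: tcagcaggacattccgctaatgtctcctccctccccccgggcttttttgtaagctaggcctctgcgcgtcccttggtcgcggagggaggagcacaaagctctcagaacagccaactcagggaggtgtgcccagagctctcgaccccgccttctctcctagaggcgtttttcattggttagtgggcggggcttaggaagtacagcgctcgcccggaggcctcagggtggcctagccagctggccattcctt
Stat4: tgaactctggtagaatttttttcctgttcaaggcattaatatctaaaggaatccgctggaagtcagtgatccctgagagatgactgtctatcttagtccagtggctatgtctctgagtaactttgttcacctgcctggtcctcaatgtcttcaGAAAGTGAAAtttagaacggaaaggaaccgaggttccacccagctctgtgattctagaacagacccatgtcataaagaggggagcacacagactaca

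In the Stat2 window, an ISRE core on the reverse strand lay 222 to 213 bases before the start, followed by a match to the longer spacing 210 to 201 bases before it. The Stat4 window held an ISRE core 97 to 88 bases before its start. The Stat3 window held none of the 3 motifs, and neither did the other Stat4 window or those of Stat5a, Stat5b and Stat6. These are matches of letters and say nothing of binding.

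Some libraries stood apart in ways that the treatments do not define, and the values below are given with this in view. IL-4 #3 needed a scaling factor of 0.763 by median ratios, against 0.99 to 1.08 in the other libraries, and differed from IL-4 #1 and #2 by a root mean square of 1.23 and 1.09 log2 units, against at most 0.682 in the other pairs of one condition. A list of 20 Paneth and goblet cell genes, which Mϕs do not use, took 50.6 to 90.5 of every 1000000 fragments in the 3 Control libraries and IL-4 #1, but 1.75 to 16.5 in IL-4 #2 and #3 and the 3 IL-6 libraries, where most of it was Lyz1. Membership of these sets therefore cannot be told apart from IL-6 treatment when IL-6 and Control are compared directly. The Mϕ identity of the cells was plain from 12 Mϕ markers, all with a mean above 0.5 FPKM, whose summed level was 17200 to 19700 FPKM in Control, 6480 to 7570 in IL-4 and 21600 to 22500 in IL-6 libraries. In bulk samples, fewer cells of a type and less RNA per cell cannot be told apart. Nothing in the sources places the libraries of one condition in separate cultures beyond the 3 mice, so p-values measure the spread between these libraries.

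Stat6 was the most abundant STAT transcript in every library, and Stat4 the least. In Control Mϕs, Stat6 stood at 61.4 ± 5.34 FPKM (SD, n = 3), followed by Stat5b, Stat2 and Stat3 at 13.9 ± 2.12, 13.0 ± 1.43 and 11.8 ± 1.42 FPKM. The ranges of these 3 overlapped from one to the next, although the order held within each Control library. Stat5a at 4.4 ± 0.358 FPKM and Stat4 at 0.725 ± 0.153 FPKM lay below, each clear of its neighbour. In IL-6-treated Mϕs, Stat3 moved up to the second rank at 28.8 ± 1.08 FPKM, clear of Stat2 below it. In IL-4-treated Mϕs the ranges of Stat2, Stat3, Stat5b and Stat5a each overlapped with the next, and IL-4 #3 was the low library for all of them, while Stat6 and Stat4 remained clear at the ends.

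**Figure D1:**
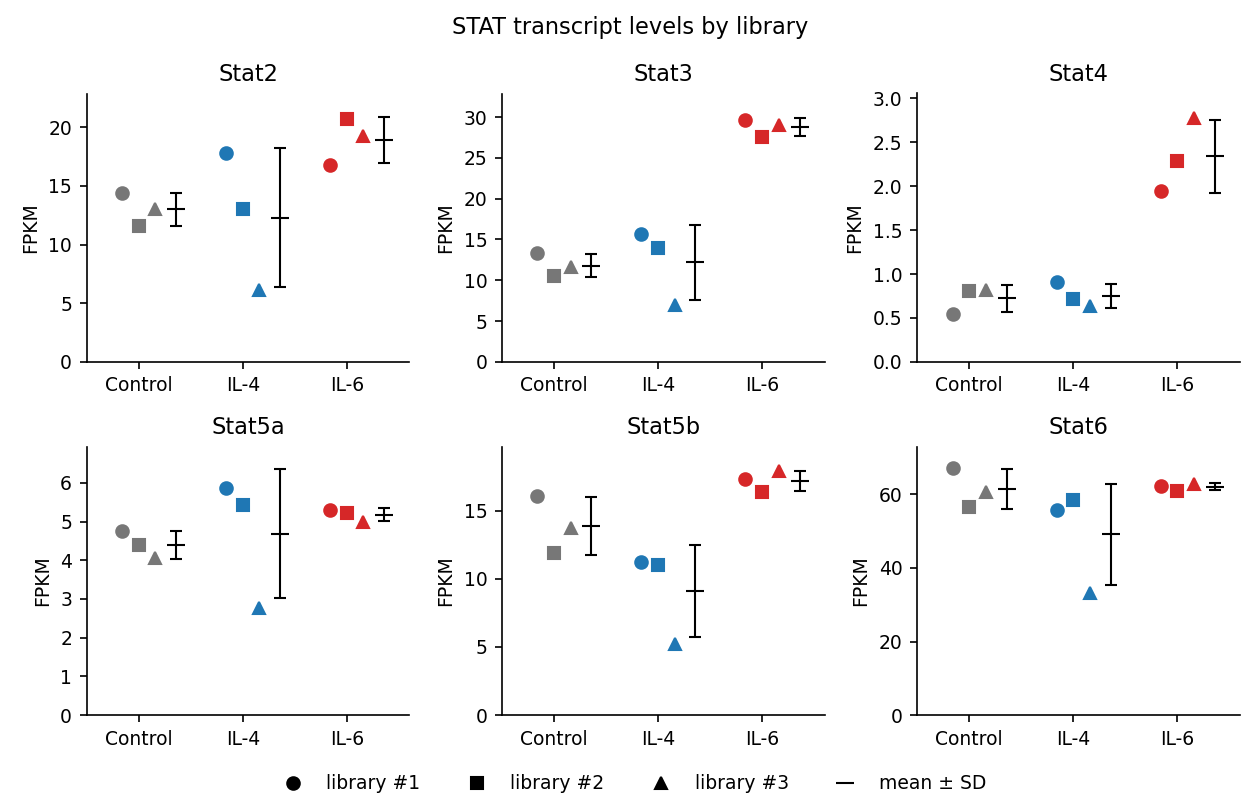
FPKM of the 6 STAT genes in each of the 9 libraries (marker shape gives the library number), with the mean ± SD of each condition in black. Stat3 and Stat4 were higher in all 3 IL-6 libraries than in any other library, and IL-4 #3 was the lowest library for Stat2, Stat3, Stat5a, Stat5b and Stat6.

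Against Control, 2 of the 6 members, Stat3 and Stat4, rose with IL-6 (adjusted p under 0.05 in limma across 12824 genes), and 8.4% of all tested genes passed, 4.58% upward and 3.82% downward. Both were also past a log2 fold change of 1, and 5.38% of all tested genes met both limits (adjusted p and fold, in either direction). No member passed in IL-4-treated Mϕs, where 24.8% of genes did, 8.55% upward and 16.3% downward, and 13.9% also passed the fold limit. At an unadjusted p under 0.05, Stat5b was the 1 member counted there, and voom on the fragments also called 0. Between the cytokines, 3 members (Stat3, Stat4 and Stat5b) were higher in IL-6- than in IL-4-treated Mϕs, against a background of 34.1%, of which 20.8% were higher and 13.3% lower. Stat3 and Stat4 were also past the fold limit there, and 20.4% of all tested genes met both limits. The comparisons with Control share the Control libraries, and IL-6 against IL-4 reuses both treated groups.

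Stat3, the gp130-activated factor, was the member with the largest rise in FPKM. It measured 13.3, 10.5 and 11.6 FPKM in Control #1 to #3, 15.7, 13.9 and 6.99 FPKM in IL-4 #1 to #3, and 29.7, 27.6 and 29.0 FPKM in IL-6 #1 to #3. All IL-6 libraries were above all others, while the IL-4 libraries spanned the Control range. The ratio of means was 2.44 for IL-6 against Control, with a log2 fold change of 1.29 ± 0.277 (SE; 95% interval 0.65 to 1.92; adjusted p = 0.0274). Against IL-4 the log2 fold change was 1.31 ± 0.277 (adjusted p = 0.00796), and for IL-4 against Control it was -0.02 (interval -0.66 to 0.61). The exact permutation test of 3 libraries against 3 gave p = 0.1 for IL-6 against Control, the smallest p it can give.

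The spread for Stat3 came largely from IL-4 #3, since limma shares 1 estimate over the 3 conditions. Without that library, Stat3 kept its log2 fold change of 1.29, with an SE of 0.102, and passed at an adjusted p of 0.00015. Leaving out any 1 Control or IL-6 library ended the pass (adjusted p from 0.0603 to 0.109), with log2 fold changes of 1.21 to 1.38. With the library set as a term in the model, the log2 fold change was 1.95 and the adjusted p 0.0903. Within the set of IL-4 #2, #3 and the IL-6 libraries, the IL-6 mean was 2.75 times the mean of the IL-4 libraries, and 2.07 times IL-4 #2 alone.

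Stat4 had the largest ratio of the family. Its levels were 0.548, 0.81 and 0.817 FPKM in Control #1 to #3, 0.907, 0.716 and 0.634 FPKM in IL-4 #1 to #3, and 1.95, 2.29 and 2.77 FPKM in IL-6 #1 to #3. The IL-6 libraries were again above all the others, and Control and IL-4 libraries mixed. These are low levels that rest on 74 to 111 fragments in Control and 264 to 330 fragments in IL-6 libraries. For IL-6 against Control the ratio of means was 3.23, a log2 difference of 1.57 ± 0.233 (SE; adjusted p = 0.00488), and the IL-6 libraries exceeded the IL-4 libraries by 1.52 ± 0.233 log2 units (adjusted p = 0.00157). With IL-4 the log2 fold change was 0.05 (interval -0.48 to 0.59). The call against Control held without any 1 library (adjusted p from 0.0016 to 0.0347) but not with the library set as a term (log2 fold change 1.95, adjusted p = 0.0722), while within that set the IL-6 mean was 3.46 times the mean of IL-4 #2 and #3.

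Because Stat4 is best known from lymphocytes, the markers of such cells stand beside it. The summed level of 16 T and NK cell markers was 35.8 to 41.5 FPKM in Control, 29.5 to 51.7 in IL-4 and 46.3 to 53.5 in IL-6 libraries, and 12 of the 16 had a mean under 0.5 FPKM. Cd4 made up most of the sum in Control and IL-6 libraries, at 34.6 and 46.8 FPKM, and Gzma, a granzyme, did so in IL-4 libraries, at 29.3 FPKM against 0.00949 in Control and 0.0932 in IL-6 libraries. Prf1, Eomes and Nkg7 were also highest in IL-4 libraries, at 0.724, 0.6 and 4.44 FPKM against 0.0338, 0.00497 and 2.65 in Control and 0.0323, 0.0275 and 2.22 in IL-6 libraries. Stat4 was highest in the IL-6 libraries, as was Cd4, which averaged 0.526 FPKM in IL-4 libraries. Cd3e and Ncr1 averaged 0.0506 and 0.0382 FPKM in Control, 0.141 and 0.12 in IL-4, and 0.098 and 0.0393 in IL-6 libraries. Trac, Cd3d, Cd8a and Lck averaged 0.206, 0.135, 0.112 and 0.372 FPKM in Control. They averaged 0.867, 0.633, 0.633 and 0.988 in IL-4 and 0.152, 0.273, 0.276 and 0.364 in IL-6 libraries. Every T and NK cell marker of the list except Cd4 had its highest mean in IL-4 libraries. A sum of 9 dendritic cell markers ran from 6.79 to 8.35, 3.4 to 4.39 and 6.41 to 10.9 FPKM in Control, IL-4 and IL-6 libraries. Of these markers, Fscn1 averaged 0.201, 0.283 and 1.25 FPKM and Xcr1 0.0217, 0.0498 and 0.0702 FPKM. Clec9a, Ccr7 and Kit also had their highest mean in IL-6 libraries, and Zbtb46 had its highest in IL-4 libraries. Flt3 (0.535, 0.318 and 0.354), Cd209a (0.655, 0.0501 and 0.365) and Siglech (3.33, 0.96 and 2.99) were highest in Control. Granulocyte and mast cell markers (13 genes) summed to 998 to 1760, 368 to 559 and 1470 to 2090 FPKM, led by the neutrophil genes Ngp and Ltf, while the mast cell and basophil genes Mcpt8 (3.7, 18.6 and 2.65 FPKM), Cpa3 (3.48, 10.0 and 2.17), Fcer1a (0.834, 5.31 and 0.578) and Gata2 (0.503, 1.76 and 0.681) were highest with IL-4. A list of 8 B cell markers summed to 30.9 to 55.7, 26.5 to 35.0 and 21.2 to 36.2 FPKM. Their part in the Stat3 and Stat4 results was not tested. Of the 50-base stretches in Stat4 transcripts, 21.7% also occur in the overlapping transcript Gm28177, which was at 0.0 to 0.0663 FPKM in the 9 libraries.

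Stat2, the ISGF3 subunit whose promoter window is shown above, measured 14.4, 11.6 and 13.0 FPKM in the Control libraries, 17.8, 13.0 and 6.09 FPKM with IL-4, and 16.8, 20.7 and 19.3 FPKM with IL-6. The IL-6 libraries lay above the Control libraries, while IL-4 #1 lay among the IL-6 values and IL-4 #3 below every other library. IL-6 against Control gave a log2 fold change of 0.54 ± 0.342 (interval -0.25 to 1.32), which did not pass (adjusted p = 0.44). When IL-4 #3 was left out, the difference passed at an adjusted p of 0.0305 with the same size. IL-6 against IL-4 gave 0.74 (adjusted p = 0.123), which became 1.08 and passed with the library set as a term (adjusted p = 0.0271) and without IL-4 #1 (adjusted p = 0.027), and IL-4 against Control -0.2 (adjusted p = 0.691).

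Groups that do not overlap were common over all genes, so they carry little on their own. For IL-6 against Control, 5 of the 6 members (all but Stat6) had all IL-6 libraries above all Control libraries, where 43.2% of all genes did not overlap, 20% upward and 23.2% downward. With IL-4, 1 of the 6 members, Stat5b, was apart from Control, and 40.3% of all genes were, 13.5% upward and 26.8% downward. Between the cytokines, Stat3, Stat4, Stat5b and Stat6 were higher in every IL-6 library, against 56.9% of all genes apart, 36.3% upward and 20.6% downward.

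Neither STAT5 paralogue passed with IL-4. Stat5b measured 16.1, 11.9 and 13.7 FPKM in Control, 11.2, 11 and 5.2 FPKM in IL-4 and 17.3, 16.4 and 17.9 FPKM in IL-6 libraries. Every IL-4 library was below every Control library, and every IL-6 library above. The log2 fold change with IL-4 was -0.67 ± 0.281 (unadjusted p = 0.0428, adjusted p = 0.12) and did not pass, and without IL-4 #3 it was -0.32 (adjusted p = 0.0849). IL-6 against IL-4 gave 0.99 ± 0.281 (adjusted p = 0.0278), a pass that held at 0.63 without IL-4 #3 (adjusted p = 0.0049) but was lost without any 1 IL-6 library (adjusted p from 0.0697 to 0.0839). Against Control, IL-6 gave 0.31 (interval -0.33 to 0.96).

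Stat5a measured 4.76, 4.39 and 4.05 FPKM in Control, 5.87, 5.42 and 2.78 FPKM in IL-4 and 5.31, 5.22 and 5.0 FPKM in IL-6 libraries. IL-4 #1 and #2 were above all Control libraries and IL-4 #3 was below them. The log2 fold change with IL-4 was 0.02 (interval -0.58 to 0.62), and without IL-4 #3 it was 0.35 and passed (adjusted p = 0.0283). IL-6 gave 0.23 (interval -0.37 to 0.83) against Control and 0.21 (interval -0.39 to 0.81) against IL-4. The paralogues share sequence, with 8.21% of the 50-base stretches of Stat5a found in Stat5b and 11% of those of Stat5b found in Stat5a, so that their reads could be split between them.

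Stat6, the IL-4 factor, measured 67.1, 56.5 and 60.7 FPKM in Control, 55.6, 58.4 and 33.3 FPKM in IL-4 and 62.3, 60.9 and 62.7 FPKM in IL-6 libraries. Only IL-4 #3 lay far from the others. No comparison passed. IL-6 against Control had a log2 fold change of 0.02 with an interval of -0.46 to 0.49, IL-4 against Control -0.36 (-0.84 to 0.11) and IL-6 against IL-4 0.38 (-0.09 to 0.85).

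**Figure D2:**
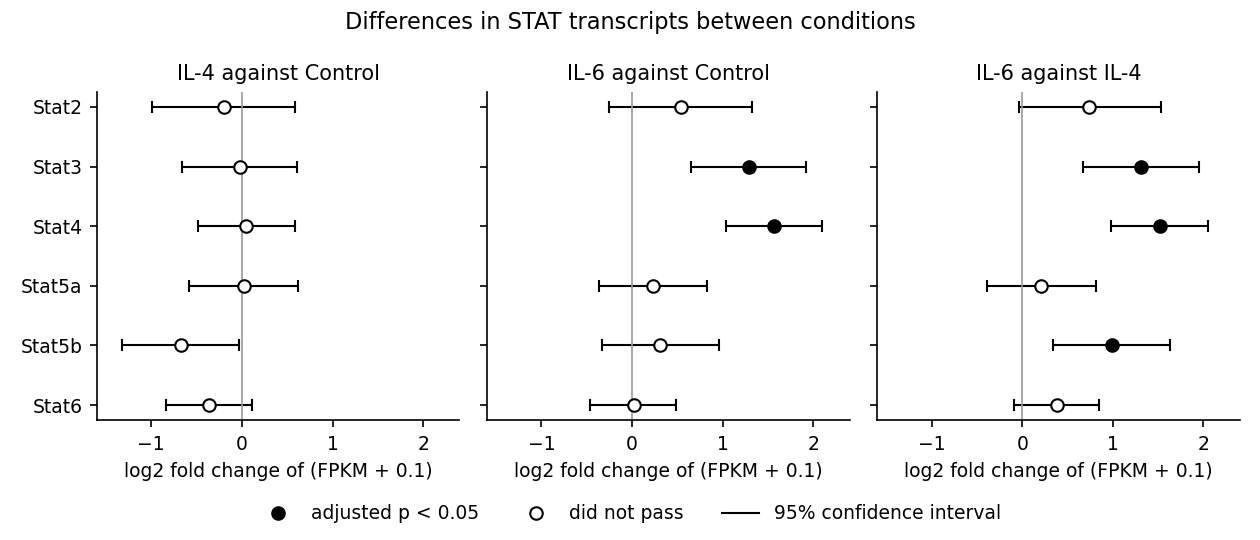
Log2 fold change of FPKM + 0.1 for each STAT gene in the 3 comparisons, with the 95% confidence interval as bars. Filled points (Stat3 and Stat4 for IL-6 against Control, and Stat3, Stat4 and Stat5b for IL-6 against IL-4) passed at an adjusted p under 0.05, and open points did not.

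The scaling of the libraries bears on the IL-4 comparisons. Over every gene tested, the middle log2 fold change was -0.2 when IL-4 was set against Control, -0.0 when IL-6 was, and 0.22 between the cytokines, and rescaling by median ratios brought these to -0.0, -0.03 and -0.0. Among called genes, 34.4% were higher in the IL-4 comparison before rescaling and 49.4% after it, and 61.1% and 48.5% between the cytokines. After rescaling, the members' log2 fold changes with IL-4 were -0.0 for Stat2, 0.18 for Stat3, 0.23 for Stat4, 0.22 for Stat5a, -0.47 for Stat5b and -0.16 for Stat6, none of which passed. The sign for Stat3 thus depends on the scaling, whereas Stat5b was the lowest member on either. With IL-6 against Control, rescaled Stat3 and Stat4 stood at 1.26 and 1.54 and both passed (adjusted p = 0.00612 and 0.00393).

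The make-up of the family does not depend on the scaling of a library. The summed level of the 6 members was 95.6 to 116 FPKM in Control, 55 to 107 in IL-4 and 133 to 137 in IL-6 libraries. Stat6 supplied 58.4% ± 0.688 of it in Control, 56.5% ± 4.35 under IL-4 and 46.1% ± 0.532 under IL-6. Stat3 supplied 11.2% ± 0.246, 13.7% ± 0.991 and 21.4% ± 0.791. The share of Stat3 was thus 10.2 percentage points higher and that of Stat6 12.3 points lower with IL-6 than in Control, with no overlap between the libraries of the conditions. The exact permutation p for each was 0.1, the smallest that 3 against 3 can give.

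Smaller shares also shifted. With IL-4, Stat5b supplied 10.2% ± 0.653 against 13.2% ± 0.723 in Control, and Stat5a 5.27% ± 0.22 against 4.2% ± 0.36, again without overlap and with an exact permutation p of 0.1 each. In IL-6 libraries these were 12.8% ± 0.398 and 3.86% ± 0.17, both overlapping with Control. Stat4 supplied 0.702% ± 0.202 in Control, 0.9% ± 0.232 under IL-4 and 1.74% ± 0.284 under IL-6, and Stat2 12.4% ± 0.242, 13.5% ± 2.87 and 14.1% ± 1.46. Shares sum to a fixed total, so a rise of Stat3 lowers the others.

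**Figure D3:**
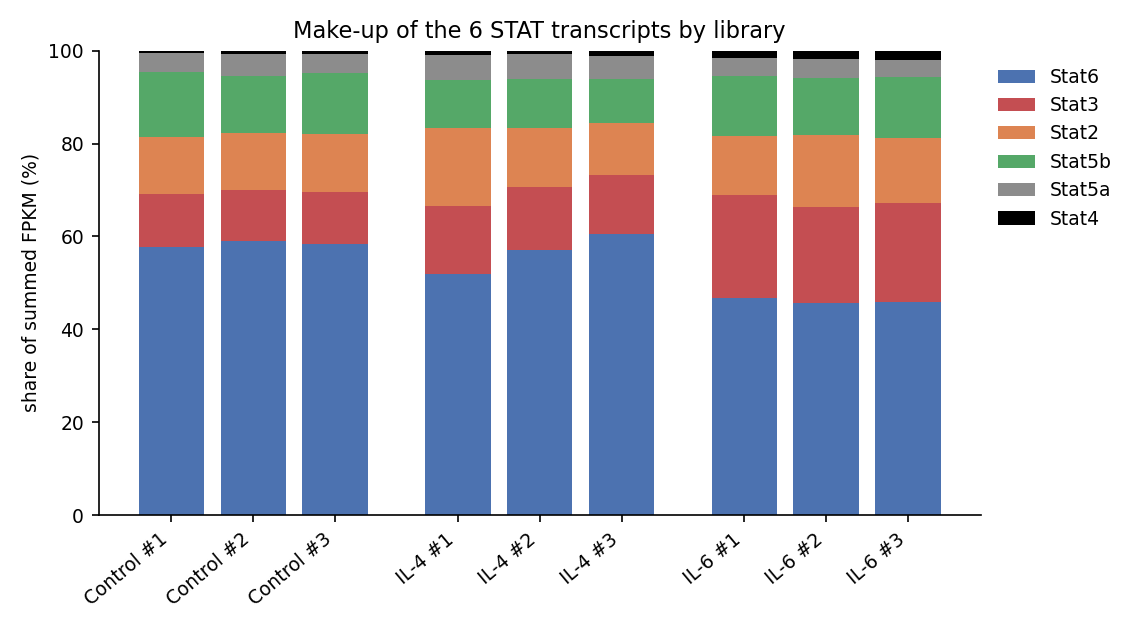
Share of the summed FPKM of the 6 STAT genes taken by each gene, in percent, for the 9 libraries. Stat6 falls from 58.4% of the total in Control to 46.1% in IL-6 libraries on average, and Stat3 grows from 11.2% to 21.4%.

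Ratios of a pair of members within a library are free of both the scaling and the shared total. The Stat3/Stat6 ratio was 0.198, 0.185 and 0.191 in the Control libraries, 0.283, 0.239 and 0.21 under IL-4 and 0.477, 0.453 and 0.462 under IL-6. The 3 conditions were apart from each other, with the IL-4 libraries between the others. The Stat5a/Stat5b ratio was 0.296, 0.37 and 0.295 in Control, 0.526, 0.494 and 0.533 under IL-4 and 0.308, 0.318 and 0.28 under IL-6. Here IL-4 stood apart and the IL-6 and Control libraries overlapped, and IL-4 #3, low for each gene, gave a ratio like those of IL-4 #1 and #2. The Stat3/Stat5b ratio averaged 0.85 ± 0.0291, 1.34 ± 0.069 and 1.67 ± 0.0514 in Control, IL-4 and IL-6 libraries, also without overlap. The pairs shown were taken from the 15 pairs of members. Of these 15, 6 did not overlap between IL-4 and Control, 12 between IL-6 and Control, and 10 between IL-6 and IL-4. Pairs outside the family were not computed, so these ratios are descriptions with no background share.

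**Figure D4:**
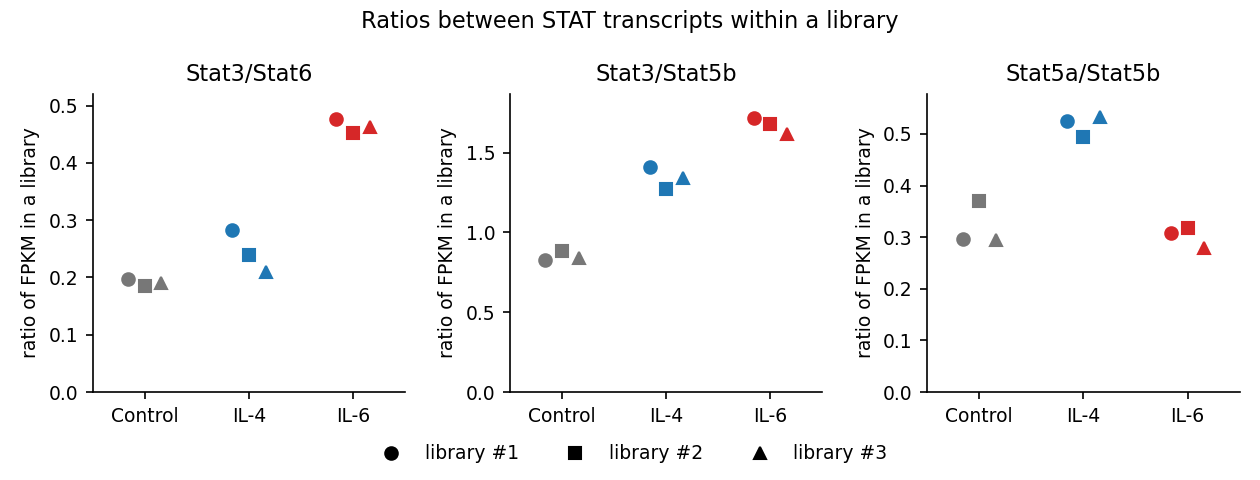
Ratio of FPKM between pairs of STAT genes within each of the 9 libraries, by condition (marker shape gives the library number). Stat3/Stat6 and Stat3/Stat5b separate all 3 conditions, and Stat5a/Stat5b sets the IL-4 libraries (0.494 to 0.533) above the rest (0.28 to 0.37).

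Only IL-4 #1 shares its set with the Control libraries, so it gives the one comparison of IL-4 with Control inside a set. It was above all Control libraries for Stat2, Stat3, Stat4 and Stat5a, at 1.37, 1.33, 1.25 and 1.33 times the Control mean, and below all of them for Stat5b and Stat6, at 0.803 and 0.905 times. As a single library it has no spread of its own. The fit with the library set as a term takes its IL-4 comparison with Control from this 1 library, assumed to vary like the others, and reaches IL-6 against Control through the IL-4 libraries.

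The receptors that feed the STATs were read next. Of 26 tested receptor chains (of 30 in the list), 6 rose and 14 fell with IL-4 and 8 rose and 1 fell with IL-6, with median log2 fold changes of -0.6 and 0.25. Over all genes the shares were 8.55% up and 16.3% down with IL-4 and 4.58% up and 3.82% down with IL-6, and the medians -0.2 and -0.0. Il4ra, the IL-4 receptor chain that docks STAT6, measured 27.6 to 30.6 FPKM in Control, 14.3 to 19.6 with IL-4 and 99.0 to 109 with IL-6. These ranges were far apart, and Il4ra fell with IL-4 (log2 fold change -0.73, adjusted p = 0.00604) and rose with IL-6 (1.81, adjusted p = 0.000215). Its partner Il2rg, the common γ chain, followed the same pattern, from a mean of 24.8 FPKM in Control to 16.1 with IL-4 (-0.63, adjusted p = 0.00419) and 67.8 with IL-6 (1.45, adjusted p = 0.000215).

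On the IL-6 side, Il6ra, the ligand-binding chain, fell with IL-4 (20.2 to 8.39 FPKM, log2 fold change -1.36, adjusted p = 0.0234), and Il6st, which encodes gp130, rose (14.1 to 47.6 FPKM, 1.63, adjusted p = 0.0289). With IL-6 neither passed, at -0.2 and 0.28. Among the other receptors, Il27ra, the IL-27 receptor, rose with IL-4 (0.418 to 2.36 FPKM, 2.27, adjusted p = 0.000326). Il1rl1, the IL-33 receptor, is on the list and in its count of 6 that rose (0.219 to 2.24 FPKM, 2.62, adjusted p = 0.00995), but it belongs to the IL-1 receptor family, which signals through MyD88 and not through JAKs. The mast cell and basophil genes given above were also highest with IL-4, and their part in this rise was not tested. Epor and Csf3r, the erythropoietin and G-CSF receptors, fell the most, by 2.97 and 2.11 log2 units. Il7r, the IL-7 receptor chain, was the 1 receptor that fell with IL-6 (46.8 to 20.2 FPKM, -1.19, adjusted p = 0.0272). With the library set as a term, 8 receptor chains passed with IL-4, a comparison that then rests on IL-4 #1 alone, and 4 with IL-6, against 20 and 9 without it.

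Of the 4 JAKs, Jak3, the kinase of the common γ chain, moved with both cytokines. It measured 8.17, 7.18 and 7.18 FPKM in Control, 5.07, 4.75 and 2.64 FPKM with IL-4 and 19.7, 20.1 and 19.0 FPKM with IL-6. The 3 conditions did not overlap, and Jak3 fell with IL-4 (log2 fold change -0.89, adjusted p = 0.0237) and rose with IL-6 (1.37, adjusted p = 0.00896). Jak2 rose with IL-4 from 11 to 26.5 FPKM (1.16, adjusted p = 0.0313), and with IL-6 it averaged 19.6 FPKM and did not pass (0.85, adjusted p = 0.174). Jak1 and Tyk2 passed in neither comparison with Control, at means of 42.7, 37.7 and 50.2 FPKM for Jak1 and 15.6, 11.2 and 16.2 FPKM for Tyk2 in Control, IL-4 and IL-6 libraries.

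The SOCS genes, induced by STATs and acting back on the receptors and JAKs, differed by cytokine. Of 8 tested, 3 rose with IL-4 and 1 with IL-6, and 0 fell in either (at an unadjusted p under 0.05, 0 were lower with IL-4 and 1, Socs6, with IL-6). Over all genes 24.8% passed with IL-4 and 8.4% with IL-6, so the 1 of 8 with IL-6 is near the background as a count. Socs1 was 1.2 to 1.45 FPKM in Control, 21.3 to 31.2 with IL-4 and 1.31 to 1.72 with IL-6. It rose with IL-4 by 4.2 log2 units (adjusted p = 3.36e-06) and stood at 0.15 with IL-6. Cish was 0.408 to 0.701 FPKM in Control, 6.75 to 11.4 with IL-4 and 0.53 to 0.73 with IL-6 (3.95 and 0.25). The inverse held for Socs3, at 1.61 to 2.91 FPKM in Control, 1.76 to 3.23 with IL-4 and 74.7 to 85.5 with IL-6, where it rose by 5.12 log2 units (adjusted p = 3.02e-05) against 0.16 with IL-4. Tested directly, IL-6 against IL-4 gave -4.05 for Socs1, -3.7 for Cish and 4.96 for Socs3, each past the threshold. IL-4 #3 was above every Control and IL-6 library for Socs1 and Cish, as were IL-4 #1 and #2.

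PIAS proteins and phosphatases, which restrain STATs in the nucleus and at the receptor, had 1 gene up and 4 down with IL-4 among 10 tested, and 0 passed with IL-6, where 8.55% of all genes rose and 16.3% fell with IL-4 and 8.4% passed with IL-6. Ptpn2, a nuclear STAT phosphatase, rose (6.12 to 13.4 FPKM, log2 fold change 1.12, adjusted p = 0.000405), while Pias3, an inhibitor of STAT3, fell (7.2 to 3.17 FPKM, -1.22, adjusted p = 0.0105), as did Sh2b3, an adaptor that dampens cytokine receptors (28.1 to 14.9 FPKM, -0.99, adjusted p = 0.0379). At an unadjusted p under 0.05, 2 of the 10 were counted with IL-6, and without IL-4 #3 there were 3 calls. Of 17 partners and cofactors, Nmi, which binds STATs, rose with IL-4 (7.26 to 13.7 FPKM, 0.89, adjusted p = 0.0109) and Hdac1 with IL-6 (14.1 to 19.1 FPKM, 0.43, adjusted p = 0.0259). These were the only calls of the list against Control, 1 of 17 with each cytokine and under the background share, and with the replicate block 0 passed with IL-6. Irf9, the ISGF3 partner of STAT2, averaged 9.85, 8.52 and 12.2 FPKM in Control, IL-4 and IL-6 libraries and passed only for IL-6 against IL-4 (0.53, adjusted p = 0.0368).

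Known targets of STAT2, STAT3, STAT5 and STAT6 were read beside the transcripts of the factors, and no list of STAT4 targets was drawn up. STAT6 targets, the classical genes of alternative activation, rose with IL-4 in 20 of 23 tested genes (27 in the list), and 1 fell. Over all genes 8.55% rose and 16.3% fell with IL-4. The list had a median log2 fold change of 3.5 against -0.2 over all genes. Arg1, encoding arginase, was 0.409 to 0.718 FPKM in Control and 730 to 1230 FPKM with IL-4 (10.58, adjusted p = 1.95e-06), and Retnla was 3.38 to 6.36 and 10200 to 24300 FPKM (11.69, adjusted p = 1.6e-06). The gene that fell was Il4ra, a target on this list and of STAT3. Stat6 itself was at 61.4 and 49.1 FPKM in these groups. With IL-6, 6 STAT6 targets rose and 7 fell, where 4.58% of all genes rose and 3.82% fell. Arg1 and Retnla rose to 2.06 to 5.33 and 19.7 to 27.9 FPKM (2.39 and 2.44). Clec10a, a lectin, and Pparg, a lipid-sensing nuclear receptor, fell by 2.16 and 2.09 log2 units.

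STAT3 targets rose with IL-6 in 14 of 24 tested genes (25 in the list) and fell in 0 (1, Ccnd1, at an unadjusted p under 0.05). Over all genes 4.58% rose and 3.82% fell with IL-6. The list had a median log2 fold change of 1.22 against -0.0 over all genes. Saa3, an acute-phase protein, was 0.616 to 0.96 FPKM in Control and 1950 to 2370 FPKM with IL-6 (11.25, adjusted p = 0.000472), the largest rise of the list, followed by Socs3. With the library set as a term, 3 of the STAT3 and 1 of the STAT6 target genes passed for IL-6 against Control, in place of 14 and 13. With IL-4, 6 STAT3 targets rose and 7 fell, where 8.55% of all genes rose and 16.3% fell. Myc, the growth regulator, rose (3.11 to 16.3 FPKM, 2.38, adjusted p = 0.000227), and Timp1, a protease inhibitor, rose with both cytokines (2.27 with IL-4, 2.31 with IL-6). The plasma proteins Lrg1 and Hp fell with IL-4, by 2.13 and 2.05 log2 units, and measured 34.4 and 232 FPKM with IL-6 against 9.69 and 36.1 in Control.

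STAT2 targets, the interferon-stimulated genes, fell with IL-4 in 16 of 27 tested genes and rose in 1, with a median log2 fold change of -1.39. Over all genes 16.3% fell and 8.55% rose, with a median of -0.2. Ifit3 was 18.2 to 22.8 FPKM in Control and 0.927 to 1.93 FPKM with IL-4 (-3.9, adjusted p = 2.68e-05), and its neighbour Ifit3b fell by 4.39 log2 units. The 2 genes are near-identical copies, so reads could be split between them. Usp18, which dampens interferon receptor signalling, was the gene that rose (2.46 to 6.98 FPKM, 1.48, adjusted p = 0.00132). With IL-6, Ifi44 and Oas2 rose (1.09 and 0.94) and Ifit3b fell (-1.07), and the list median was 0.47. These 3 of 27 are close to the background of 8.4%, and with the replicate block the count was 1. Stat2 itself had no detectable change with IL-4, with an interval of -0.99 to 0.58.

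STAT5 targets rose in 6 and fell in 3 of 13 tested genes with IL-4 (14 in the list), and 1 rose and 1 fell with IL-6. Over all genes 24.8% passed with IL-4 and 8.4% with IL-6, so the 2 with IL-6 are close to the background as a count. Cish and Socs2 led the rise with IL-4 (3.95 and 2.91), and Osm, the cytokine oncostatin M, and Id1, an inhibitor of DNA binding, fell by 1.59 and 1.02 log2 units. With IL-6, Pim1, a survival kinase that is also on the STAT3 list, rose from 17.4 to 42.3 FPKM (1.28, adjusted p = 0.0016) and Igf1 fell from 57.1 to 28.4 FPKM (-1.01, adjusted p = 0.0125).

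**Figure D5:**
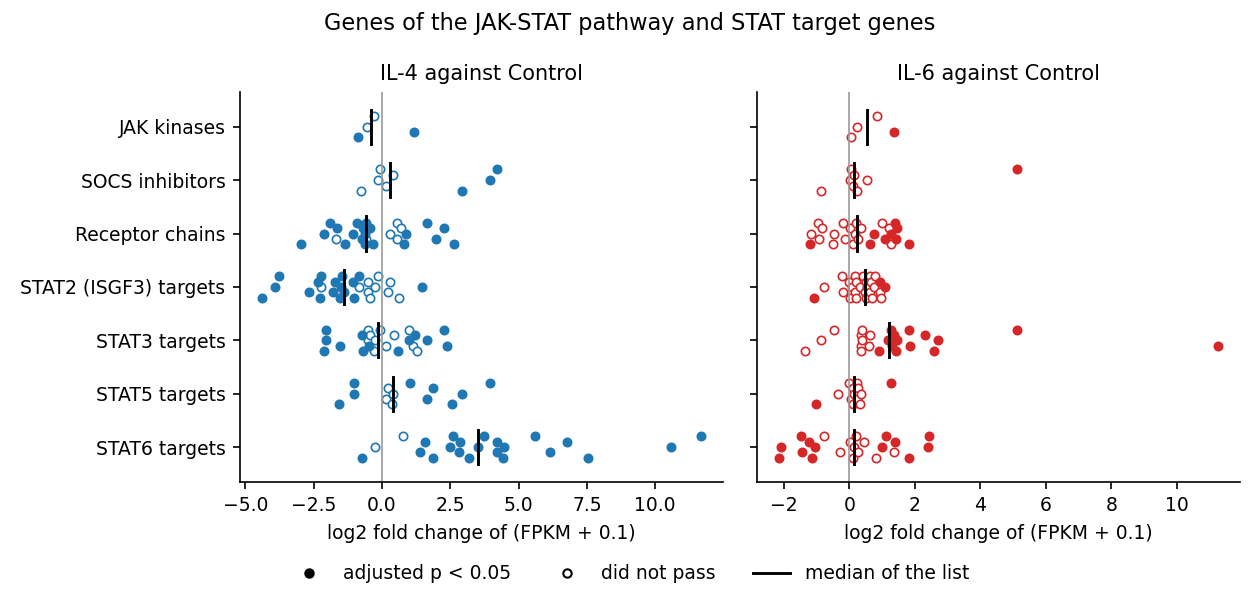
Log2 fold change of FPKM + 0.1 for the tested genes of 7 lists, for IL-4 (left) and IL-6 (right) against Control. Filled points passed at an adjusted p under 0.05, and black lines are list medians, which reach 3.5 for STAT6 targets with IL-4 and 1.22 for STAT3 targets with IL-6.

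Genes beside the STAT loci did not all follow them. Cavin1, a coat protein of caveolae whose gene lies 17192 bases from Stat3, averaged 0.585 ± 0.0841 FPKM in Control, 12.4 ± 0.754 under IL-4 and 1.22 ± 0.319 under IL-6, and rose with each cytokine (log2 fold changes 4.2 and 0.92, adjusted p = 6.87e-06 and 0.034). Stat3, in contrast, rose with IL-6 and not detectably with IL-4. Ghdc beside Stat5b and Lrp1 and Nab2 beside Stat6 passed in no comparison, and Apof and Il23a, on either side of Stat2, were under the filter.

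Over the 9 libraries, the genes whose centred log2 profile was nearest to each member were searched among all tested genes. For Stat3 these were Pde5a, Sema4a and Rest, at root mean square differences of 0.101, 0.113 and 0.113 log2 units. Those nearest to Stat4 were Dtx2, Rhou and 1110002J07Rik (0.149, 0.156 and 0.19), and those nearest to Stat2 were Golph3l, Cgas and Pik3cd (0.105, 0.124 and 0.125). Stat5a was nearest to Gtf2e1, Ogdh and Map2k4 (0.0567, 0.0734 and 0.0737), Stat5b to Ikzf1, Mrtfa and Cdk19 (0.0461, 0.0601 and 0.0646), and Stat6 to Mtif2, Zdhhc3 and Tm9sf2 (0.0398, 0.0402 and 0.0454). The profiles share libraries and their scaling, so the low value of IL-4 #3 enters each of them.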

How the data were processed

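RNA of 9 cultures of BM-derived Mϕs (Control, IL-4 and IL-6, 3 libraries each) was sequenced from stranded mRNA libraries. The authors deposited FPKM per gene. Their processing notes name STAR 2.4.2a, GRCm38 and Cufflinks 2.2.1, and replicates were not pooled. Of 53379 gene identifiers, 50604 (94.8%) matched GENCODE M21 with their version. Of 98297 low values tested, 98297 were whole fragments over M21 exon lengths within 0.05, which gave each library's total. Whether strand was used in counting is not given in the sources used here.

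FPKM were transformed as log2(FPKM + 0.1), and the 12824 genes with a mean of at least 0.5 entered one limma model (version 3.58.1, R 4.3.3; 3 groups, eBayes with trend and robust options, Benjamini-Hochberg adjustment over all genes tested). Every adjusted p comes from this fit unless an alternative is named. For single values, 3 libraries were set against 3 in an exact permutation test (two-sided), which cannot give a p below 0.1. The fit was tested on simulated data with known changes. Figures and summaries used Python 3.11.15, numpy 2.4.6, pandas 2.3.3, scipy 1.17.1 and matplotlib 3.10.9.

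The members and gene lists were chosen with earlier results of these data known. A further family member and some other items are not reported here. Besides the 6 STAT genes, the text names 11 fixed pathway genes (the 4 JAKs, Il4ra, Il6ra, Il6st, Socs1, Socs3, Cish and Irf9), for each list the genes with the 2 largest changes in each direction among those that passed with no overlap between groups against Control, the 3 genes of nearest profile to each member, and the protein-coding neighbours. Socs6, Ccnd1 and the cell type markers given singly were named after their values were seen. Replicate numbers run from 1 to 3 in each condition and the column headers carry the same numbers with an m, which was read as the mouse. Deviations of same-numbered libraries from their group means correlated at 0.521, -0.415 and 0.0777 for IL-4 with Control, 0.408, 0.201 and 0.166 for IL-6 with Control, and 0.281, -0.0612 and 0.153 for IL-6 with IL-4. Alternatives covered the pseudocount, the filter, the scaling, the moderation, voom on recovered fragments, the replicate block, the library set, the groups in the fit, the fold limit and each library left out.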

Additional observations from a re-analysis of the deposited data

How the results depend on the processing

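Over 372 alternative values of the members' log2 fold changes, 350 stayed on their side of the threshold, 17 lost a pass, 5 gained one and 0 changed the sign of a call. All 108 alternative values of the family shares were unchanged in direction. Of 486 alternative list counts, 386 were within 1.5 times the count reported, 78 were lower and 22 higher. For IL-6 against Control, the 2 members called became 1 with no filter, with a mean FPKM of at least 5 (Stat4 is then not tested) and with no moderation, and 0 with the library set as a term. With no moderation, Stat3 kept its log2 fold change of 1.29, with an SE of 0.307 in place of 0.277 and an adjusted p of 0.0609. Leaving out 1 library at a time gave 1 to 3 members called for IL-6 against Control, 2 to 4 for IL-6 against IL-4 and 0 to 1 for IL-4 against Control. The 1 was Stat5a without IL-4 #3.

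The replicate block used the replicate number, which was read as the mouse although the labels do not state this. With it, 0, 2 and 3 members were called for IL-4 against Control, IL-6 against Control and IL-6 against IL-4, as without it. Stat3 and Stat4 passed for IL-6 against Control under the block at adjusted p = 0.0362 and 0.0185, and Stat5b for IL-6 against IL-4 at 0.0345. Among the lists, the block took the partners and cofactors called for IL-6 against Control from 1 to 0 and the STAT2 targets from 3 to 1.

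Over all genes, calls for IL-6 against Control ran from 587 higher and 490 lower to 147 and 40 with the library set as a term, and to 1585 and 1597 without IL-4 #3. The adjusted p of Stat3 for IL-6 against Control ran from 0.00015 to 0.109 over its alternatives. Depth limits Stat4 most, at 74 to 330 fragments a library.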
